A study of Saccharomyces cerevisiae with 6 samples.

Results

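The kinases that put a phosphate on glucose, fructose or both in budding yeast come from a small gene family. The mRNAs of its members HXK1, HXK2, GLK1 and EMI2 were followed here through the withdrawal of sucrose. The 4 genes were listed by name, with no measured value in the rule. They stood among 5028 genes with values in the deposited tables, and 4 of 4 passed the filter on low counts that left 5011 genes for testing. The NoSucrose libraries came from 3 wild-type BY4741 cultures that were grown in synthetic medium with 2% sucrose to an OD600 of 0.45 at 30°C, collected on a filter and kept for 16 min with 2% glycerol and 2% ethanol as carbon sources. The Sucrose libraries came from 3 wild-type BY4741 cultures grown in the same way and pelleted without a transfer. BY4741 is a haploid MATa laboratory strain that carries deletions in HIS3, LEU2, MET15 and URA3, shared by both conditions, and no culture lacked a hexose kinase gene. Filtration and transfer were done in the NoSucrose cultures alone, so handling and carbon source cannot be told apart. The base medium is given as SC in the sample labels and as SC without tryptophan in the study's methods.

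Hexoses that enter the cell are trapped and made ready for glycolysis by phosphorylation at the expense of ATP. Hxk1 and Hxk2 act on both glucose and fructose, the sugars that invertase releases from sucrose, whereas Glk1 acts on glucose and not on fructose. EMI2 is counted in the family as the paralog of GLK1, and was first named for a role in the early induction of meiosis. HXK1 with HXK2, and GLK1 with EMI2, are pairs left by the duplication of the yeast genome. Hxk2 is the main kinase during growth on glucose, and it also takes part in glucose repression together with the repressor Mig1. Glycerol and ethanol enter metabolism below the hexose phosphates, so the NoSucrose medium supplied no substrate for these enzymes.

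The 4 genes lie on 4 chromosomes and each is a single coding exon (RefSeq annotation, R64 build). HXK1 (YFR053C) is at chrVI:253592-255049 on the minus strand, HXK2 (YGL253W) at chrVII:23935-25395 on the plus strand, GLK1 (YCL040W) at chrIII:50838-52340 on the plus strand, and EMI2 (YDR516C) at chrIV:1474974-1476476 on the minus strand. Because estimated counts can be split between similar transcripts, the coding sequences were aligned. HXK1 and HXK2 were identical at 77.7% of aligned bases and GLK1 and EMI2 at 68.7%, while pairs across these 2 branches were identical at 52.2 to 54.9%. No run of 31 bases was shared by any pair of the 4 genes, and 100% of the 31-base words of each gene occurred once in the genome. The longest run common to each paralog pair is shown because it is the longest stretch of exact identity between their coding sequences.
HXK1 and HXK2, coding bases 247 to 269 of both: ttggccattgatttgggtggtac
GLK1 bases 592 to 606 and EMI2 bases 595 to 609: taccaggagcaatta

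The sequence upstream of the start codon was searched because HXK1, GLK1 and EMI2 increased together and HXK2 did not. The stress response element (STRE), CCCCT, is bound by the activators Msn2 and Msn4, and the GC box of Mig1-type repressors was searched as CCCC followed by A or G and then by C or G. Both motifs were searched on both strands in the 600 bases before the start codon, and no STRE word overlapped a Mig1 word at these genes. HXK1 had 5 STRE words, GLK1 had 3, EMI2 had 2 and HXK2 had 0, where 39.7% of 5999 such windows held at least 1 STRE. At least 5 STRE words were found in 0.33% of windows, at least 3 in 2.43% and at least 2 in 10.7%. Mig1 words numbered 2 at HXK1 and 1 each at HXK2, GLK1 and EMI2, where 27.8% of windows held at least 1 and 5.23% at least 2. The STRE counts depended on the window. In the 300 bases before the start codon, GLK1 had 3, EMI2 had 1, and HXK1, like HXK2, had 0. At least 1 STRE word was found in 22.2% of 6001 windows of that length. The windows below hold the STRE words of the 3 increased genes, with STRE and Mig1 words in capitals (a word on the opposite strand reads AGGGG, or GCGGGG for a Mig1 word). A match is a string of letters and not a measured binding site.
HXK1, chrVI:255346-255645, minus strand: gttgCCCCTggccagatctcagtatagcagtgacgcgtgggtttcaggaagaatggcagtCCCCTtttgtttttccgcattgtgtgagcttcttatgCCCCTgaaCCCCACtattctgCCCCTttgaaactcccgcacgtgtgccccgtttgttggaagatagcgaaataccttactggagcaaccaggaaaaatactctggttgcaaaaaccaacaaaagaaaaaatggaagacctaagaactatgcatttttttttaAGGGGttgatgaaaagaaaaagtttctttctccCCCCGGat
GLK1, chrIII:50538-50837, plus strand: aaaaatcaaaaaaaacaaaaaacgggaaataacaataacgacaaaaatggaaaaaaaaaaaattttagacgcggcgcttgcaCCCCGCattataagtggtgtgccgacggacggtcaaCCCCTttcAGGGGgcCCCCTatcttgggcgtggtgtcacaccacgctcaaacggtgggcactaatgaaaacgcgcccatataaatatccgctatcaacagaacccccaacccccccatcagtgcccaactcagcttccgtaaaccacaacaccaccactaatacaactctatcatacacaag
EMI2, chrIV:1476537-1476836, minus strand: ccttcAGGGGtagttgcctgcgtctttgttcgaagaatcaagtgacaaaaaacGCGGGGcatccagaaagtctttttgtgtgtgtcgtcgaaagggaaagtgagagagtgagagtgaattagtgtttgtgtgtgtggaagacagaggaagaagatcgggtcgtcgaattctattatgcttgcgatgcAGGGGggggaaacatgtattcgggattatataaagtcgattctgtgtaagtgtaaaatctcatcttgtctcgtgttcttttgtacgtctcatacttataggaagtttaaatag

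**Figure D1:**
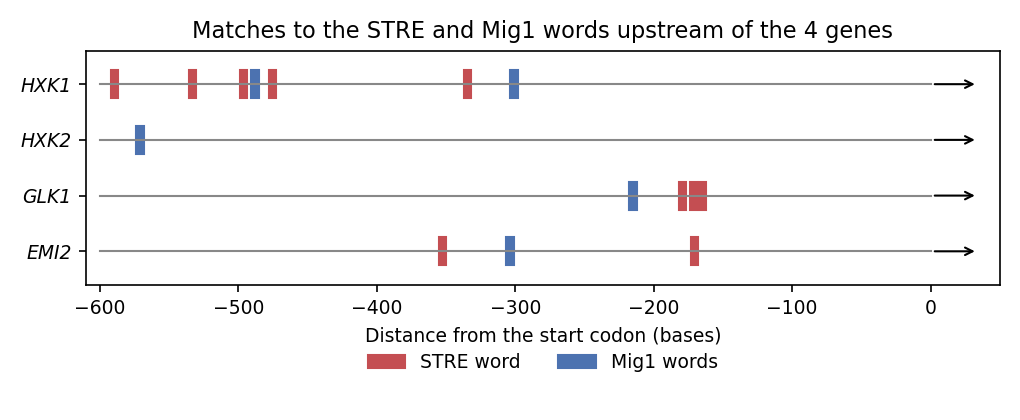
Positions of STRE words (CCCCT) and Mig1 words in the 600 bases upstream of the start codon of each gene, with distance from the start codon in bases on the horizontal axis. Red marks are STRE words and blue marks are Mig1 words, on either strand. HXK1 carries 5 STRE words between 592 and 337 bases upstream, GLK1 carries 3 between 182 and 167, EMI2 carries 2 at 355 and 173, and HXK2 carries 0.

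The STRE words of HXK1 began 592, 536, 499, 478 and 337 bases before the start codon. Those of GLK1 began at 182, 174 and 167 bases, so the 3 words stood side by side. EMI2 had its words at 355 and 173 bases. The GLK1 window overlaps YCL042W, an open reading frame annotated on the same strand that reaches 106 bases into GLK1 and was not analysed here. Over all 4971 tested genes with a 600-base window, 12.7% increased. The share was 7.5% with no STRE word (226 of 2996 genes) and 14.7% with 1 word (212 of 1443). With 2 words it was 31.5% (129 of 410), and with at least 3 it was 51.6% (63 of 122). HXK1, GLK1 and EMI2 are among the counted genes, and the search followed from their fold changes. These shares are a description, and a link to the increase was not tested. They were taken for STRE words alone and for none of the other motifs searched. Other motifs were searched in the same 600 bases. CTTCC, the core of the sites of the glycolytic activator Gcr1, occurred 4 times upstream of HXK1 and 5 times upstream of EMI2. This word occurred 1 time upstream of GLK1 and not upstream of HXK2. It was found at least once in 72.9% of windows, at least 4 times in 5.85% and at least 5 times in 1.62%. The carbon source response element, searched as CC and CCG with 6 bases between them, was found once upstream of HXK1 and in 24.7% of all windows. CGGANNA, the word of the glucose-regulated repressor Rgt1, was found once each upstream of HXK1 and HXK2 and in 48.0% of all windows.

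After sucrose withdrawal the mRNAs of HXK1, GLK1 and EMI2 increased 6.54-, 7.94- and 6.06-fold, whereas HXK2 had a fold change of 1.07 that did not pass the test. Of the 4 genes, 3 thus increased at an adjusted p below 0.05 with a fold change above 2, a call that 12.7% of all 5011 tested genes met in this direction. The groups of 3 libraries did not overlap for HXK1, GLK1 and EMI2 and overlapped for HXK2. Absence of overlap was common, as it held for 84.8% of tested genes in either direction and for 43.7% with all NoSucrose libraries above all Sucrose libraries. By log2 fold change they ranked 117 (GLK1), 147 (HXK1) and 157 (EMI2) of 5011 genes, and HXK2 ranked 2263. In these bulk cultures, a change in the number of cells that hold a transcript cannot be told apart from a change in its level per cell.

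HXK1, a kinase of glucose and fructose, had estimated counts of 154353, 151128 and 155562 in the NoSucrose libraries, against 17352, 27974 and 25024 in the Sucrose libraries. Scaled by library size and TMM factor to a common total (CPM, the usual depth-scaled unit), these were 5669, 5523 and 4676 CPM in NoSucrose, against 717, 863 and 845 CPM in Sucrose. The lowest NoSucrose library stood far above the highest Sucrose library, and replicate 3 of NoSucrose and replicate 1 of Sucrose were each below the other libraries of their condition. The means were 5289 ± 536 CPM in NoSucrose and 809 ± 79.4 CPM in Sucrose (SD, n = 3 each). The log2 fold change was 2.71 (SE 0.10, 95% confidence interval 2.47 to 2.95, edgeR's quasi-likelihood test, adjusted p = 2.902e-07). By CPM, HXK1 was the gene of rank 15 of 5011 in NoSucrose and of rank 235 in Sucrose.

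HXK2, its closest paralog, had estimated counts of 63227, 73368 and 82999 in NoSucrose, against 55700, 77171 and 68126 in Sucrose. Its levels were 2322, 2681 and 2495 CPM in NoSucrose, against 2303, 2381 and 2301 CPM in Sucrose. The NoSucrose library with the lowest level, replicate 1, lay between Sucrose replicates, so the groups overlapped. The mean was 2499.5 ± 180 CPM in NoSucrose and 2329 ± 45.6 CPM in Sucrose (SD, n = 3 each). The log2 fold change of 0.10 (SE 0.06) had an adjusted p of 0.147 by edgeR's quasi-likelihood test. The 95% interval of the fold change ran from 0.975 to 1.18. It includes no change as well as an increase of up to 1.18-fold, and the required fold change of 2 lies outside it. HXK2 was already abundant, at rank 38 of the 5011 genes by CPM in NoSucrose and rank 54 in Sucrose. Without NoSucrose replicate 1 the adjusted p was 0.0173 at a log2 fold change of 0.15, and with scaling by library size alone it was 0.00907 at 0.22, both short of that fold change. That scaling moved the median log2 fold change of all tested genes to 0.14, against 0.03 with TMM factors.

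GLK1, the glucokinase, had estimated counts of 85285, 81731 and 90758 in NoSucrose, against 8477, 12525 and 11158 in Sucrose. This gave 3132, 2987 and 2728 CPM in NoSucrose, against 351, 386 and 377 CPM in Sucrose. As for HXK1, the lowest libraries were replicate 3 of NoSucrose and replicate 1 of Sucrose, and the conditions stood well apart. The mean was 2949 ± 205 CPM in NoSucrose and 371 ± 18.6 CPM in Sucrose (SD, n = 3 each). GLK1 had the largest fold change of the 4 genes, with a log2 value of 2.99 (SE 0.07, 95% interval 2.83 to 3.15, edgeR's quasi-likelihood test, adjusted p = 6.513e-08). Its rank by CPM was 30 in NoSucrose and 481 in Sucrose.

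EMI2 had estimated counts of 25525, 24598 and 28447 in NoSucrose, against 3673, 4764 and 4302 in Sucrose. In CPM it stood at 937, 899 and 855 in NoSucrose, against 152, 147 and 145 in Sucrose. It was the least abundant of the 4 mRNAs in every library with means of 897 ± 41.2 CPM in NoSucrose and 148 ± 3.41 CPM in Sucrose (SD, n = 3 each). NoSucrose replicate 3 was again the lowest of its condition, while Sucrose replicate 1 was here the highest of its own. The log2 fold change was 2.60 (SE 0.05, 95% interval 2.47 to 2.73, edgeR's quasi-likelihood test, adjusted p = 5.246e-08). EMI2 moved to rank 161 by CPM in NoSucrose, against rank 1231 in Sucrose.

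**Figure D2:**
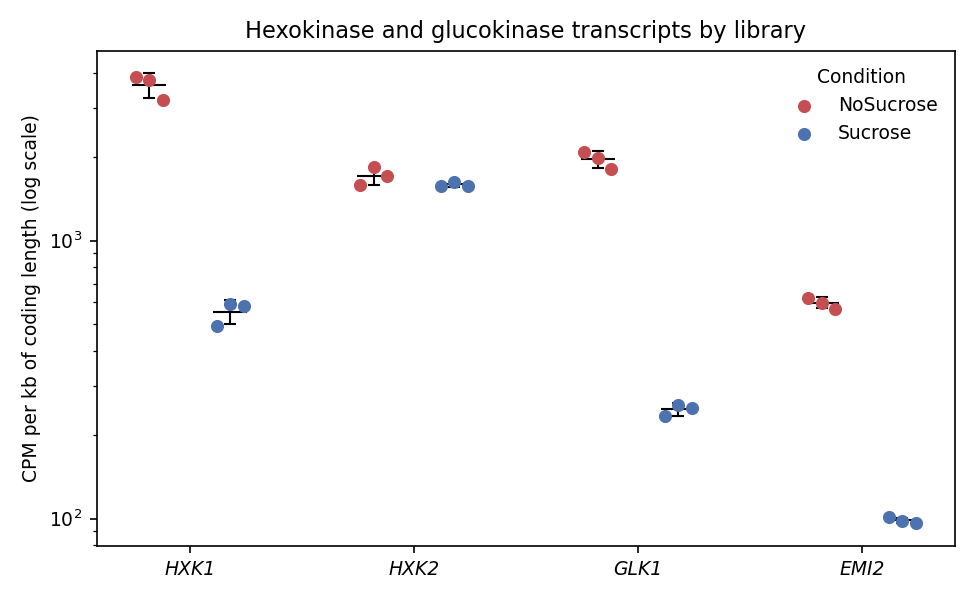
Level of each gene in the 6 libraries, as TMM-scaled CPM per kilobase of coding length on a logarithmic axis, with NoSucrose (red) left of Sucrose (blue), points for libraries and bars for the mean and its SD. The conditions are separated for HXK1, GLK1 and EMI2 and overlap for HXK2, where NoSucrose spans 1589 to 1835 CPM per kb and Sucrose spans 1575 to 1630.

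**Figure D3:**
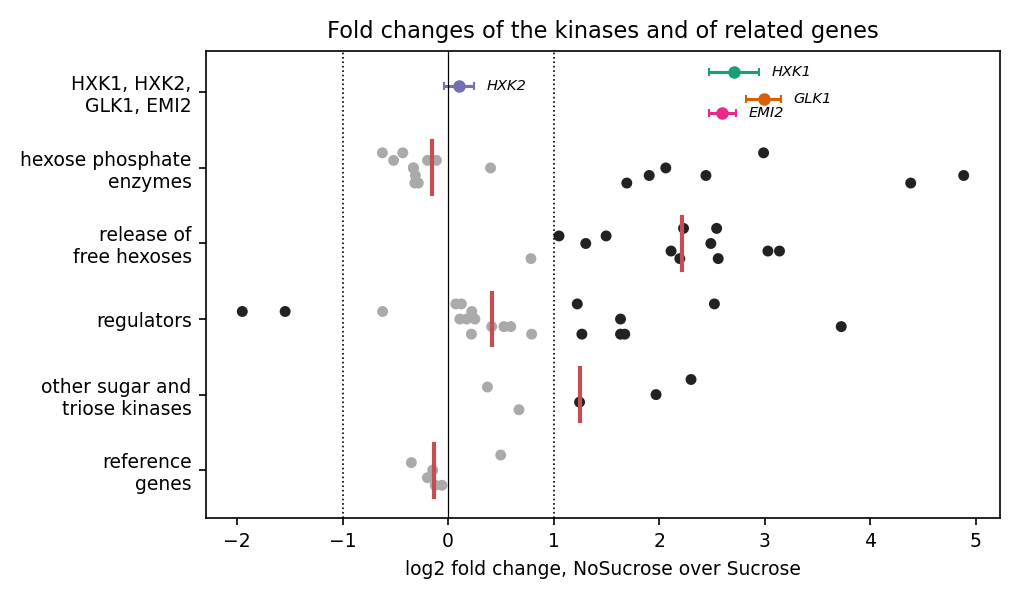
Log2 fold change, NoSucrose over Sucrose, of the 4 genes with 95% confidence intervals, above the tested genes of the related lists as points (black where called, grey where not, with a red line at the median of each list). Dotted lines mark the fold change threshold of 2. The intervals of HXK1, GLK1 and EMI2 lie between 2.47 and 3.15, and that of HXK2 spans 0.

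Levels of different genes were compared as CPM per kilobase of coding length, since the 4 coding sequences differ in length. In all 3 NoSucrose libraries the order was HXK1, GLK1, HXK2, EMI2, and in all 3 Sucrose libraries it was HXK2, HXK1, GLK1, EMI2. HXK1 averaged 3628 ± 368 CPM per kb in NoSucrose and 555 ± 54.5 in Sucrose (SD, n = 3 each). GLK1 averaged 1962 ± 136 CPM per kb in NoSucrose and 247 ± 12.4 in Sucrose. For HXK2 the values were 1711 ± 123 CPM per kb in NoSucrose and 1594 ± 31.2 in Sucrose, and for EMI2 they were 597 ± 27.4 in NoSucrose and 98.5 ± 2.27 in Sucrose. GLK1 and HXK2 were neighbours that overlapped across the NoSucrose libraries, at 1815 to 2084 CPM per kb for GLK1 and 1589 to 1835 for HXK2. Within a library GLK1 stood 1.31, 1.08 and 1.06 times as high as HXK2 in NoSucrose, against 0.148, 0.158 and 0.159 times in Sucrose. The other neighbours in both orders did not overlap.

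The sum of the 4 mRNAs was 8185, 8209 and 7299.5 CPM per kb in NoSucrose, against 2403, 2577 and 2502 CPM per kb in Sucrose. The family total was thus 3.17-fold higher in NoSucrose, a log2 difference of 1.66 (p = 0.1 in a two-sided exact permutation test over libraries, the lowest value possible with 3 against 3). Together the 4 genes took 1.25, 1.24 and 1.15% of all counts in NoSucrose, against 0.339, 0.364 and 0.351% in Sucrose. Of the mean gain of 5404 CPM per kb, HXK1 contributed 56.9%, GLK1 31.7%, EMI2 9.22% and HXK2 2.17%.

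The makeup of the family changed with the total. A share needs no scaling between libraries, because it is taken within each library from counts per kilobase. The share of HXK1 was 47.5, 46.1 and 43.9% in NoSucrose, against 20.5, 23.0 and 23.2% in Sucrose, a difference in means of 23.7 percentage points. The share of HXK2 was 19.4, 22.4 and 23.4% in NoSucrose, against 65.6, 63.3 and 62.9% in Sucrose, so that it fell by 42.2 points on average while the level of HXK2 did not pass the test. GLK1, whose product does not act on fructose, made up 25.5, 24.2 and 24.9% in NoSucrose, against 9.71, 9.98 and 10.02% in Sucrose. EMI2 made up 7.62, 7.29 and 7.79% in NoSucrose, against 4.21, 3.80 and 3.86% in Sucrose. No share overlapped between the conditions, and each gave p = 0.1 in a two-sided exact permutation test, again the lowest value possible. With 3 against 3 libraries, chance alone gives no overlap in 10% of cases, and the CPM of 84.8% of tested genes did not overlap here. The 4 shares add up to the whole in each library. A rise in some therefore requires a fall in others, and the 4 p-values are not independent. The branch of HXK1 and HXK2, which acts on glucose and fructose, held 67.6 ± 0.821% of the family in NoSucrose and 86.1 ± 0.0727% in Sucrose (SD, n = 3 each). The branch of GLK1 and EMI2 held 33.1, 31.5 and 32.7% in NoSucrose, against 13.9, 13.8 and 13.9% in Sucrose.

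**Figure D4:**
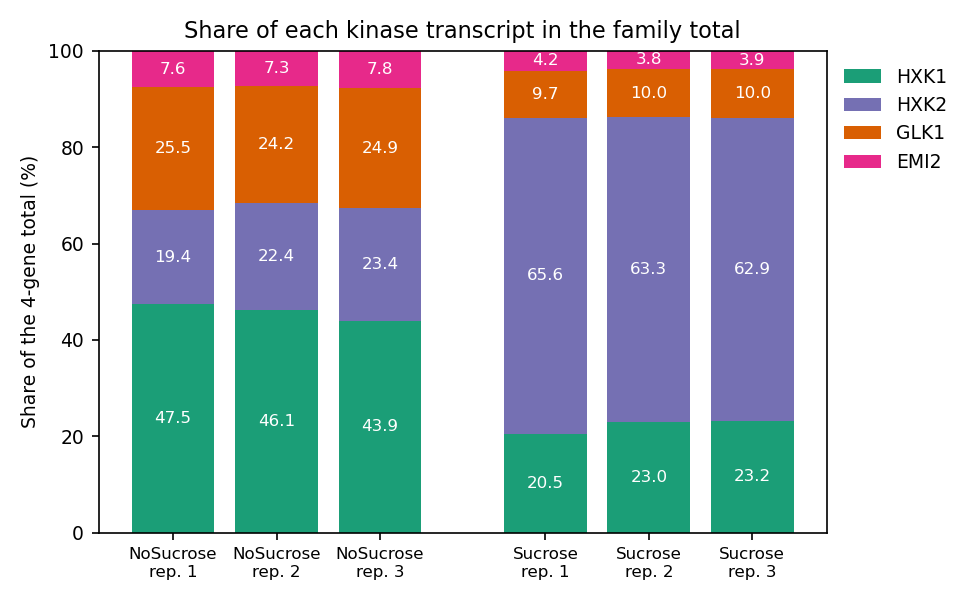
Share of each gene in the summed counts per kilobase of the 4 genes, in percent, as 1 stacked bar per library with the 3 NoSucrose libraries left of the 3 Sucrose libraries. HXK2 makes up 19.4 to 23.4% in NoSucrose and 62.9 to 65.6% in Sucrose, and HXK1 makes up 43.9 to 47.5% in NoSucrose and 20.5 to 23.2% in Sucrose.

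Paralogs were then compared directly within each library. HXK1 stood 2.45, 2.06 and 1.88 times as high as HXK2 per kilobase in NoSucrose, against 0.312, 0.363 and 0.368 times in Sucrose. The pair exchanged places, with a log2 difference of 2.61 between conditions (p = 0.1 in the same exact permutation test). GLK1 stood 3.34, 3.32 and 3.19 times as high as EMI2 in NoSucrose, against 2.31, 2.63 and 2.59 times in Sucrose. Both genes of this pair increased, and GLK1 gained on EMI2 by 0.39 on the log2 scale (p = 0.1 in the same exact permutation test), with no overlap between the conditions. HXK1 stood 1.87, 1.91 and 1.77 times as high as GLK1 in NoSucrose, against 2.11, 2.30 and 2.31 times in Sucrose, a difference that was not tested.

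Other genes around the step were described by lists. Each was read against the 12.7% of tested genes that increased and the 6.03% that decreased. The median log2 fold change over all tested genes was 0.03. At an adjusted p below 0.05 and any fold change, 42.2% of tested genes were higher in NoSucrose and 1993 of 5011 were lower. Of 12 tested genes whose products release free hexoses from sucrose, maltose, isomaltose, trehalose or glycogen, 11 increased and 0 decreased, with a median log2 fold change of 2.21. The ends of this list were SUC2, the invertase that splits sucrose, at 3.14, and the isomaltase gene IMA5 at 0.78, which was not called. The other increased genes were the glycogen debranching enzyme GDB1 (3.03), the trehalases ATH1 (2.56), NTH1 (1.50) and NTH2 (2.23), the glucoamylase SGA1 (2.20), the maltases MAL12 (2.11) and MAL32 (2.49), and IMA1 (1.30), IMA2 (1.05) and IMA4 (2.54). MAL12 with MAL32, and IMA4 with IMA3, are near-identical copies and the other isomaltase genes are close relatives, so the estimated counts of single members are uncertain. IMA3 was not tested. In this list 0 genes had a lower level at an unadjusted p below 0.05 in edgeR, and DESeq2 gave 0 decreased genes as well.

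Among 18 tested enzymes that make or use hexose phosphates, 7 increased and 0 decreased, and the median log2 fold change was −0.15. The increased genes were the phosphoglucomutase PGM2 (4.89), the transketolase TKL2 (4.38), the transaldolase NQM1 (2.99), the trehalose phosphate synthase TPS1 (2.44), PFK26 (2.06) and FBP26 (1.91), which make and break down fructose 2,6-bisphosphate, and the gluconeogenic fructose 1,6-bisphosphatase FBP1 (1.69). FBP1 rested on 52 to 103 counts in NoSucrose and 18 to 27 in Sucrose. The enzyme that takes over glucose 6-phosphate in glycolysis, PGI1, had a log2 fold change of −0.43, and the phosphofructokinase subunits PFK1 and PFK2 had −0.28 and −0.31, none of them called. The lowest value in the list was that of the transketolase TKL1, at −0.62. YMR099C was not tested. By adjusted or unadjusted p below 0.05 at any fold change, 9 of the 18 genes were lower in NoSucrose. By adjusted p, 1993 of all 5011 tested genes were lower as well. DESeq2 with the fold change threshold gave 0 decreased genes.

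Of 21 regulators of the kinase genes or of Hxk2 itself, 7 increased and 2 decreased, with a median log2 fold change of 0.41. TDA1, the kinase that phosphorylates Hxk2 when glucose is scarce, increased by 2.52 on the log2 scale. CAT8, an activator of gluconeogenic genes, had the highest value in the list at 3.73, and the respiratory and carbon source regulators HAP4 and ADR1 increased by 1.67 and 1.27. TYE7, an activator of glycolytic genes, increased by 1.63, MTH1, a cofactor of Rgt1, by 1.63, and MIG3, a relative of Mig1, by 1.22. MIG2, another relative of Mig1, fell by 1.95, and STD1, the paralog of MTH1, fell by 1.54. MIG1 had a log2 fold change of 0.25 that missed the threshold (edgeR's quasi-likelihood test, adjusted p = 0.0613). MSN2 and MSN4, the STRE activators, had log2 fold changes of 0.22 and 0.41 and were not called. By adjusted or unadjusted p below 0.05 at any fold change, 16 regulators were higher in NoSucrose and 3 were lower. By adjusted p, 2114 of all 5011 tested genes were higher and 1993 were lower. DESeq2 with the fold change threshold gave 7 increased and 2 decreased regulators.

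Of 5 tested kinases of other sugars and trioses, 3 increased and 0 decreased, with a median of 1.25. They were the xylulokinase XKS1 (2.30), the glycerol kinase GUT1 (1.97) and the galactokinase GAL1 (1.25), while the dihydroxyacetone kinase DAK1 (0.67) and the ribokinase RBK1 (0.37) were not called. YDR109C, DAK2 and YLR446W were not tested. The 6 reference genes, among them ACT1 at −0.12, gave 0 calls, with log2 fold changes from −0.35 (TAF10) to 0.50 (TFC1) and a median of −0.13. By adjusted or unadjusted p below 0.05 at any fold change, 1 reference gene was higher in NoSucrose and 4 were lower. Over all tested genes, 82.0% passed by adjusted p in either direction. DESeq2 also gave 0 calls for the reference genes. Among the other kinases, 5 genes were higher and 0 lower by unadjusted p, and 0 were lower by DESeq2.

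Genes with the most similar profile were found by the root mean square difference of centred log2 CPM over the 6 libraries. Nearest to HXK1 were CUR1 (0.0623), SDD1 (0.0700) and FRT2 (0.0747), while EMI2 was at rank 22 and GLK1 at rank 34. Nearest to GLK1 were GLG1 (0.0453), which encodes the glycogenin that primes glycogen, OM45 (0.0526), a protein of the outer mitochondrial membrane, and DIP5 (0.0801). Nearest to EMI2 were HUL4 (0.0573), YPK2 (0.0658) and TMA17 (0.0784), with HXK1 at rank 19. Nearest to HXK2 were SFT1 (0.0311), SAN1 (0.0339) and PEX25 (0.0364). These distances describe 6 libraries in 2 conditions, and genes with a like fold change come out close.

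The adjacent genes were examined next. Of the 6 tested neighbours, 0 were called by edgeR's quasi-likelihood test with the fold change threshold, against 18.7% of all 5011 tested genes. The neighbours included RPN12 beside HXK1 at −0.02, FZF1 and RTG2 beside HXK2 at −0.16 and 0.22, and SLF1 and GRH1 beside EMI2 at −0.46 and 0.61. GID7, downstream of GLK1 and a part of the ubiquitin ligase that removes gluconeogenic enzymes, had a log2 fold change of 0.99, just under the fold change threshold, with an adjusted p of 3.583e-07. By adjusted or unadjusted p alone, 4 neighbours (RTG2, GID7, SLF1 and GRH1) passed 0.05, where 82.0% of all tested genes did so by adjusted p. DESeq2 with the fold change threshold also called 0 neighbours. YFR054C and YCL042W, the other neighbours, were not tested.

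Over the whole table, 937 of 5011 genes were called (18.7%), 635 of them increased and 302 decreased. At an adjusted p below 0.05 without a fold change threshold, 4107 genes (82.0%) passed, so small differences were widely detectable here. Library totals ran from 26313145 to 31231626 estimated counts in NoSucrose and from 25106494 to 33651822 in Sucrose. The TMM factors ran from 1.022 to 1.065 in NoSucrose and from 0.957 to 0.963 in Sucrose, so they differed by condition. Levels in CPM are relative to the other mRNAs of a library. The MATa receptor gene STE2 had 5104 to 7710 counts in NoSucrose and 10342 to 13953 in Sucrose, and STE3, the receptor gene of the other mating type, had 195 to 264 in NoSucrose and 174 to 238 in Sucrose. HIS3, which is deleted only in part in BY4741, had 1164 to 1557 counts in NoSucrose and 2534 to 3414 in Sucrose. LEU2, MET17 (MET15) and URA3 were looked up and were not among the 5028 genes with values.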

How the data were processed

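RNA-seq libraries of 3 NoSucrose and 3 Sucrose cultures, described in the study as biological triplicates, were grouped by the sample labels. Reads had been trimmed with Flexbar and quantified with Salmon 1.4 on an R64 transcriptome, and the authors deposited estimated counts per gene, with no scaling. Names and values are out of step in the deposited filtered table. Each of its 5028 rows was therefore named after the gene with the same 6 values, in any order, in the unfiltered table of 5113 genes, and 5028 matched exactly 1 gene. Samples follow the headers of the filtered table, which gave the values of a shortened supplementary table for 1999 of 1999 genes (relative tolerance 1e-05). The headers of the unfiltered table did so in 2 of 6 libraries and were not used.

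Counts were rounded and filtered (filterByExpr, min.count 15, min.total.count 20). edgeR 4.0.16 in R 4.3.3 was run with TMM factors and the quasi-likelihood test, with condition as the only term. A call needed a Benjamini-Hochberg adjusted p below 0.05 over all 5011 genes and a fold change above 2. Standard errors were obtained as the size of the log2 fold change over the square root of F. The edgeR p-values measure the spread among 3 libraries a condition, moderated by the spread of all tested genes. The kinase genes had 7.53 total degrees of freedom each. Near an unadjusted p of 0.05 the median absolute log2 fold change was 0.131. Log2 CPM for profiles had a prior count of 2. Shares, ratios and totals were compared by exact permutation over libraries (scipy 1.17.1). Alternatives were RLE, upper-quartile and library size scaling, DESeq2 1.42.0, no filter, a replicate block, each library left out, no length correction, a prior count of 2 in the ratios, and no fold change threshold. The script was tested on simulated data.

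The 4 genes and the lists (free hexose release, hexose phosphate enzymes, regulators, other sugar and triose kinases, reference genes) were chosen with earlier results of these data known. Named genes are the 4 genes, list members that were called or had the extreme values of their list, and the 3 nearest profiles of each gene. PGI1, PFK1, PFK2, MIG1, MSN2, MSN4, DAK1, ACT1 and the adjacent genes were added for their role or position. Sequences and coordinates are from RefSeq (R64). Identities come from global alignment with Biopython 1.88.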

Additional observations from a re-analysis of the deposited data

How the results depend on the processing

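Of 132 alternatives to 13 results, 131 were counted as the same. A fold change had to keep its direction and its call, and a count had to stay within 1.5 times. Shares, the family total and ratios had to keep their direction alone. The exception was the number of tested genes called, which was 4107 without the fold change threshold, against 937 with it. HXK1, GLK1 and EMI2 were called, and HXK2 was not, under every alternative run. Leaving out each library in turn gave log2 fold changes of 2.63 to 2.79 for HXK1, 0.05 to 0.15 for HXK2 (adjusted p 0.0173 to 0.452, edgeR's quasi-likelihood test), 2.94 to 3.05 for GLK1 and 2.57 to 2.63 for EMI2, with 853 to 1020 genes called. The differences in share ran from 22.8 to 24.6 points for HXK1, −43.0 to −41.1 for HXK2, 14.6 to 15.3 for GLK1 and 3.50 to 3.75 for EMI2. The log2 difference of the family total ran from 1.63 to 1.72, of HXK1 to HXK2 from 2.50 to 2.70 and of GLK1 to EMI2 from 0.33 to 0.42, where the exact permutation p cannot go below 0.2.

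With the replicate number as a block, the log2 fold changes were 2.71 (HXK1), 0.10 (HXK2, adjusted p = 0.112 by edgeR), 2.99 (GLK1) and 2.60 (EMI2), with 933 genes called. The block changed the call of none of the 4 genes. Deviations of same-numbered libraries from their condition means correlated at −0.137, −0.00221 and 0.0407 across genes, and not every library correlated best with its own number, so the numbers were not taken as pairs.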
